A study of Mus musculus with 2 samples.

Results

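Genes annotated as long noncoding RNA were examined in the left cerebral cortex of B6CASTF1/J mice, all male and 14 days old. The members were the annotated genes of type lincRNA, bidirectional_promoter_lncRNA or processed_transcript chosen by read number, a minimum of 5 in each of the libraries, and Meg3, Rian and Peg3 were left out. They numbered 142 of the 18366 annotated mouse genes with a read, and were 73 lincRNA, 60 processed_transcript and 9 bidirectional_promoter_lncRNA genes. The read minimum chose them, so their being detected in both libraries is no result. The GENCODE M21 annotation holds 6834 genes of these 3 types, of which 1308 had a read in either library and 610 had reads in both. The study sequenced full-length cDNA with long reads, in 1 group of 2 biological replicates with 2 µg of total RNA each and no treatment or mutant. B6CASTF1/J is a first-generation cross of C57BL/6J and CAST/EiJ, bought from The Jackson Laboratory. Both replicates carry 1 donor identifier and the labels speak of several males, so whether each was 1 animal or a pool is not given. The p-values below measure only the spread between these 2 libraries against counting error.

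Long noncoding RNAs are transcribed by RNA polymerase II and are mostly capped, spliced and polyadenylated like messenger RNAs, but carry no long open reading frame. Some act in the nucleus, on chromatin or splicing. Others act in the cytoplasm as decoys for proteins or miRNAs, and others serve as host transcripts from whose introns or exons miRNAs and small nucleolar RNAs are cut. In brain many are transcribed beside genes of developmental transcription factors. A long read assigned to a transcript model shows which exons were joined in that molecule, and Known models match an annotated transcript. Incomplete splice matches (ISM) hold part of an annotated intron chain, NIC chains combine annotated splice sites in an unannotated way, and NNC chains have a splice site that the annotation lacks. Models called Genomic lie over a gene and do not follow its splicing.

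The label "long intergenic noncoding" held for part of the set. RefSeq (GRCm38.p6) had a match for 110 of the 142 genes. It typed 98 of them as lncRNA, 8 as protein-coding, 2 as pseudogenes and 2 as transcribed pseudogenes. The 8 protein-coding matches, which held 14.0% and 13.5% of member reads in replicates 1 and 2, included Cct6a, a subunit of the cytosolic chaperonin, Ndufb1-ps (RefSeq Ndufb1, a subunit of respiratory complex I), the mitochondrial phosphatase Ptpmt1 and the ciliary gene Tctn2. The genes Gm42418, AY036118 and Gm26917 lie at the ribosomal RNA locus on chromosome 17 and held 2.21% and 2.46% of member reads. By position, 71 of the 142 genes did not overlap the span of a coding gene on either strand. At exon level, 8 shared exon bases with a coding gene on the same strand and 48 others lay opposite coding exons. The set is therefore called the noncoding-typed genes here.

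The sequences that tie this set to known functions come from miRNA host genes and from the 3 lincRNAs with a known sequence element among the 4 highest genes. Mature miRNAs are from RefSeq (GRCm38.p6), written 5′ to 3′ with the seed, bases 2 to 8, in capitals. The same miR-9 is encoded at 3 loci, each inside a noncoding-typed gene (Gm3764 on chromosome 3, C130071C03Rik on chromosome 13 and Mir9-3hg on chromosome 7). The hosts 3110039I08Rik and Mir99ahg carry miR-100 and miR-99a, which share a seed, and 1700016P03Rik carries miR-132 and miR-212, which share another.
miR-9-5p: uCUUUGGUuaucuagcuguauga
miR-22-3p: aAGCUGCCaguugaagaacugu
miR-132-3p: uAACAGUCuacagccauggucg
miR-212-3p: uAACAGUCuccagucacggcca
miR-100-5p: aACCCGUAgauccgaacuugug
miR-99a-5p: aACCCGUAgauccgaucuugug
miR-125b-5p: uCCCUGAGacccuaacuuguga
let-7c-5p: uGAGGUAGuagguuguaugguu
miR-16-5p: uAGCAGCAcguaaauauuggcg

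Within the 3 lincRNAs the elements were located on GENCODE M21 transcripts (GRCm38), read on the sense strand. The first window is from 2900097C17Rik-202, the transcript of Norad, at chr2:156390481-156390580 on the minus strand, with matches to the Pumilio element TGTANATA in capitals. The second is from Miat-201, at chr5:112216733-112216832 on the minus strand, with the repeat TACTAAC in capitals. The third is the miR-7 site of 1700020I14Rik-202 (RefSeq Oip5os1, known as Cyrano), at chr2:119602135-119602164 on the plus strand, with the bases complementary to miR-7a-5p in capitals.
Norad: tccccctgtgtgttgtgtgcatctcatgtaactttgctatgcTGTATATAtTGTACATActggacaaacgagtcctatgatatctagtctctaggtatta
Miat: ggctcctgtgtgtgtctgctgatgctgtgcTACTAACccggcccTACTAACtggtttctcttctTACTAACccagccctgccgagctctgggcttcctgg
Cyrano: gaACAACAAAATCACcaatGTCTTCCAttt
miR-7a-5p: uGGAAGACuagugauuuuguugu

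Of 775048 mouse reads in replicate 1, 3029 fell on the noncoding-typed genes, and of 924222 in replicate 2, 3493 did. Their share was 0.391% (95% Wilson interval 0.377% to 0.405%) and 0.378% (0.366% to 0.391%), a mean of 0.384% ± 0.0091 (SD, n = 2). The 10099 protein-coding genes with the same read minimum took 87.3% ± 0.508. Counts were scaled to the mouse reads of each library (CPM) and not divided by length, which takes 1 long read as 1 molecule. Whether the length of an RNA affects its number of reads was not tested. The median noncoding-typed gene stood at 13.6 CPM, and the median protein-coding gene under the same minimum at 37.1 CPM. With a minimum of 10 reads in each library the noncoding-typed median was 25.7 CPM, and in Known models alone it was 3.88 CPM and the share of mouse reads 0.185%. Levels were concentrated in few genes. The highest gene held 14.2% and 13.1% of member reads in replicates 1 and 2, the 20 highest 52.1% and 52.2%, and 15 genes had a mean of 50 CPM or more. At the read minimum, 26 genes had exactly 5 reads in the lower library, such as 1700003M07Rik with 5 and 6. A further 43 genes of the 3 types had 4 reads in the lower library and were left out, such as 1300002E11Rik with 4 and 6. Intervals cover counting error only, and 3 reads correspond to 3.87 and 3.25 CPM.

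**Figure D1:**
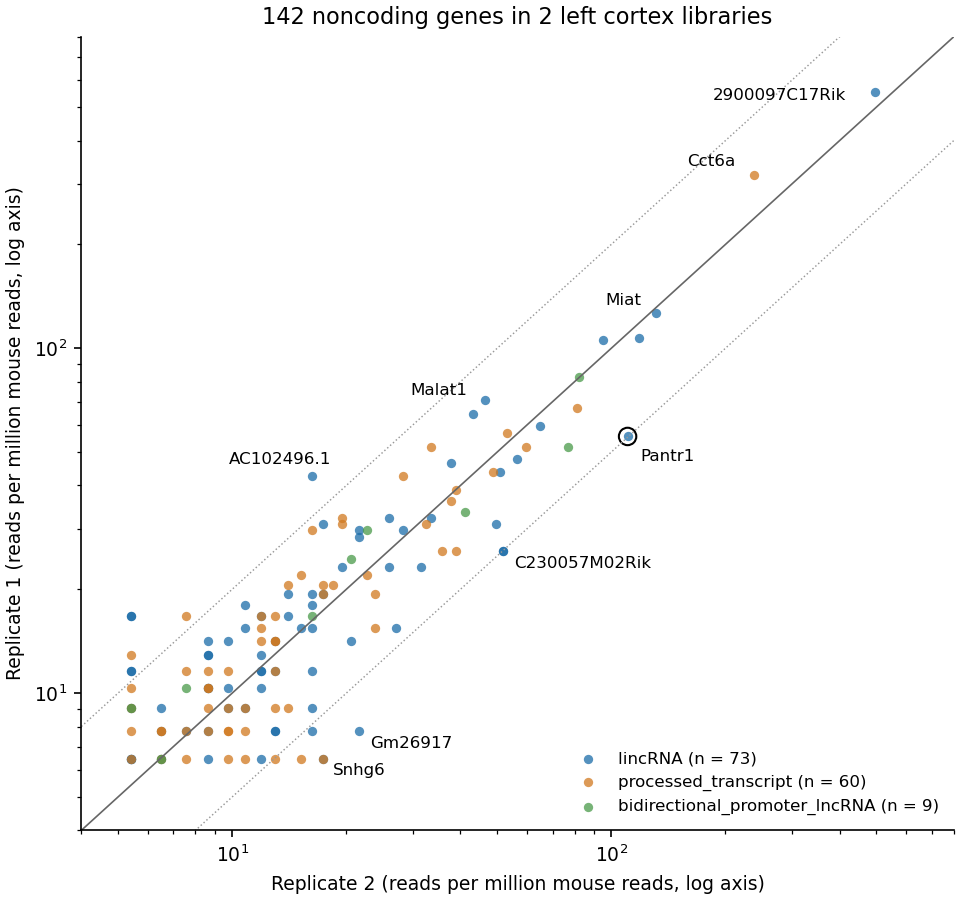
Level of each of the 142 genes in replicate 1 (vertical) against replicate 2 (horizontal), in CPM on log axes, coloured by gene type, with the line of equality and dotted lines at 2-fold. Of the 142 genes, 127 lie within 2-fold, and the circled gene, Pantr1, is the only one past the library test.

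2900097C17Rik, the gene of Norad (chromosome 2, 156388065 to 156392979, minus strand), was the highest of the set. Norad is a cytoplasmic RNA known for binding Pumilio proteins and for keeping chromosome number stable. It had 430 reads in replicate 1 and 458 in replicate 2, or 525 ± 41.9 CPM (SD, n = 2). The annotated single-exon transcript 2900097C17Rik-202 of 4915 bases held 276 and 267 of these reads. The short transcript 2900097C17Rik-201 of 339 bases, which lies near the 5′ end of the long one, held 152 and 189. Model lengths are those of the annotation, and the tables do not give the ends of single reads. The long transcript held 11 matches to TGTANATA on the sense strand and 0 to its reverse complement. Of 8905 annotated transcripts of 4000 to 6000 bases, 41.0% held a match and 3, this one included, held 11 or more. All 11 lie outside the short transcript.

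Miat (chromosome 5, 112213228 to 112229395, minus strand), also known as Gomafu, is a nuclear RNA of neurons known for its repeats of a branch point-like element bound by splicing factors. It had 98 and 121 reads, or 129 ± 3.17 CPM. Genomic models held 78.5% of its reads over both libraries. In each library a single-exon model of 2234 bases at the 3′ end of the gene (112213228 to 112215461) took most of them, with 77 and 90 reads. Known models held 3.20% of the reads and spliced models 22.4%. Miat-201 held 6 copies of TACTAAC, and 2 of 773 annotated transcripts of 8000 to 9500 bases held as many or more, Miat-201 included, with 19.9% holding any. The copies lay 3539 to 4221 bases from the 3′ end, so none fell inside the 2234-base model that carried most reads.

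Cyrano, 1700020I14Rik (chromosome 2, 119594297 to 119607502, plus strand), is known in mouse brain for triggering the decay of miR-7. It had 83 and 109 reads, or 113 ± 7.67 CPM. The 3-exon transcript 1700020I14Rik-202 of 8300 bases held 34 and 39 reads, and the shorter 1700020I14Rik-201, which ends upstream of the miR-7 site, held 14 and 15. Single-exon Genomic models that end at the 3′ end of the long transcript held 27 reads in replicate 1 (4305 bases) and 38 in replicate 2 (3604 bases). The miR-7 site starts 5366 bases from that end, outside those models, and inside a further single-exon model of 2945 bases with 13 reads in replicate 2. At the site 21 of the 23 bases of miR-7a-5p are matched, in a run of 13 and a run of 8. No other of the 141767 annotated transcripts searched held the run of 13 followed within 6 bases by the run of 8. The run GTCTTCCA alone stands in 19.2% of 1043 annotated transcripts of 7500 to 9100 bases, and 2 times in 1700020I14Rik-202.

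**Figure D2:**
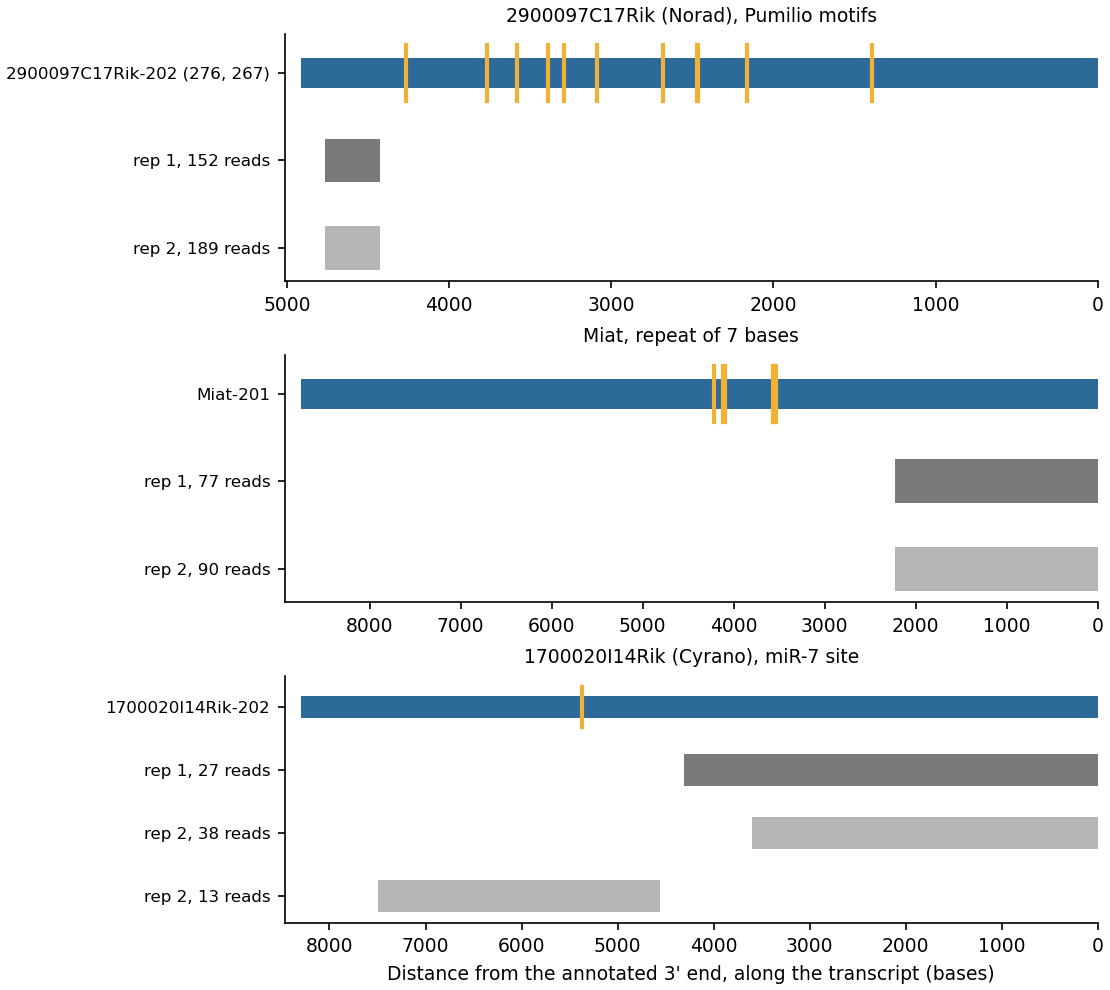
Annotated transcripts of 2900097C17Rik, Miat and 1700020I14Rik (blue, 5′ end at left) with the positions of the sequence elements (yellow) and the other single-exon models with at least 4 reads (grey, darker for replicate 1), by distance from the annotated 3′ end in bases. The single-exon models at the 3′ ends of Miat and 1700020I14Rik stop short of the elements.

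Malat1 (chromosome 19, 5795690 to 5802672, minus strand), an abundant nuclear RNA of speckles, had 55 and 43 reads, or 58.7 ± 17.3 CPM, all in the annotated single-exon transcript of 6983 bases. Neat1, the architectural RNA of paraspeckles, had 1 and 0 reads and is no member. Of the other nuclear RNAs listed, Firre had 6 and 9 reads and Pvt1 had 11 and 12. None of the 4 nuclear members passed the library test described below. Neither Firre nor Pvt1 had a read in a Known model.

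Pantr1 (chromosome 1, 42590782 to 42694842, minus strand) stands 926 bases from Pou3f3, the gene of an upper-layer neuron transcription factor transcribed the other way. It had 43 reads in replicate 1 and 102 in replicate 2, or 55.5 and 110 CPM. Set as replicate 1 over replicate 2, its log2 ratio was -0.98 with a 95% interval of -1.49 to -0.47, and the adjusted p was 0.0109 by Fisher's exact test with Benjamini-Hochberg adjustment over 11203 genes. It was the only one of the 142 genes past this test (0.704%), against 236 of all tested genes (2.11%), of which 123 (1.1%) were lower in replicate 1 as Pantr1 was. With ERCC spike-in reads as the library total its log2 ratio was -0.70 with an adjusted p of 0.0668 by Fisher's exact test. Under that total 4 other members of the 142 passed the test, beside 988 of all 11203 tested genes. All 4 were higher in replicate 1 (Norad, AC102496.1, Cct6a and Malat1). That scaling moved the median log2 ratio of all tested genes to 0.29. An annotated transcript of 3 exons and 615 bases led in both libraries, with 13 and 46 reads. Pou3f3 had 8 and 14 reads. Summed markers of some other cells and regions also differed between the libraries, and others were closer. The 4 excitatory neuron markers summed to 3433 and 5001 CPM, the 6 striatal markers to 911 and 220 CPM with Drd2 and Adora2a without a read in a library, and the 4 choroid plexus markers to 38.7 and 258 CPM with Clic6 and Folr1 without one. The 4 oligodendrocyte markers summed to 3045 and 2000 CPM, the 4 red blood cell markers to 276 and 532 CPM and the 4 meningeal fibroblast markers to 151 and 252 CPM. Closer were the sums for astrocytes (2304 and 2729 CPM), interneurons (439 and 362), microglia (261 and 228) and endothelium (413 and 417). The part of these in the Pantr1 result was not tested, and in bulk tissue fewer cells of a type and less RNA per cell cannot be told apart.

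Without adjustment 12 of the 142 genes (8.45%) had p under 0.05, against 1254 of all tested genes (11.2%). Among these were Cct6a with 247 and 220 reads (adjusted p = 0.0727, Fisher's exact test), C230057M02Rik and the pseudogene Gm10076 with 20 and 48 each, Ndufb1-ps with 40 and 71 and Malat1. The largest ratios belonged to 4632415L05Rik and A330102I10Rik, each with 13 and 5 reads (log2 1.55), and to Gm26917 with 6 and 20 (log2 -1.40). Across the set the log2 ratio had a median of 0.11, beside 0.01 over all tested genes. Levels correlated across the 142 genes with Pearson's r = 0.890 on log2(CPM + 1). Genes are not independent replicates, and the read minimum in each library limits the ratio a low gene can show. Of 42 genes of the 3 types with at least 10 reads in all that missed the minimum in a library, 3 passed the test (BC065397, Gm36995 and Tmem147os). Over all tested genes 236 of 11203 (2.11%) passed. The 42 were chosen for a low count in a library, so the rule itself favours uneven counts and their number is no result.

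Model classes set the noncoding-typed genes apart from protein-coding genes. Known models held 48.2% ± 1.01 of their reads (SD, n = 2), against 72.7% ± 0.795 in protein-coding genes. Genomic models held 24.2% ± 0.967, against 5.29% ± 0.560. NNC chains held 14.1% ± 1.79 against 4.36% ± 0.0485, and NIC chains 7.29% ± 0.104 against 6.93% ± 0.137. Incomplete matches were the smaller class, with 6.21% ± 0.0831 against 10.7% ± 0.323. For Known, Genomic, NNC and ISM models the 95% Wilson intervals of the gene sets did not overlap in either library. Reads of 1 gene are not independent, and a single gene, Cct6a, gave much of the NNC share, which was 7.88% ± 0.647 without it. Likewise Norad gave 428 and 456 of the 1438 and 1708 reads in Known models in replicates 1 and 2.

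**Figure D3:**
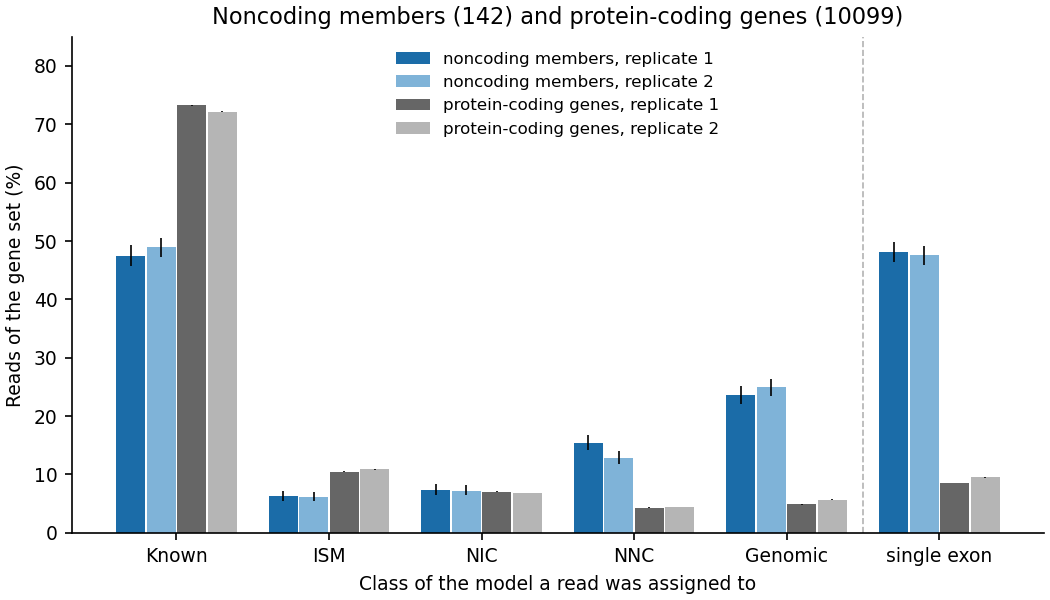
Share of reads by class of the model, in percent, for the 142 noncoding-typed genes (blue) and 10099 protein-coding genes (grey), with a bar for each library and 95% Wilson intervals as error bars. Genomic models and single-exon models of any class take a larger share in the noncoding-typed genes in both libraries.

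Single-exon models of any class held 47.8% ± 0.389 of the reads of noncoding-typed genes, against 9.04% ± 0.708 in protein-coding genes. Norad alone gave 428 and 456 of the 1457 and 1661 single-exon reads of the set in replicates 1 and 2. The median read was assigned to a model of 2 exons in noncoding-typed genes and of 7 exons in protein-coding genes, in both libraries. The genes differed widely among themselves. In 27 of them no read was spliced, and in 22 every read was. In 41 genes (28.9%) no read fell in a Known model, against 4.44% of protein-coding genes. The class with most reads was Known in 64 genes, Genomic in 42, NNC in 16 and NIC in 12. By type, spliced models held 77.7% and 77.6% of the reads of processed_transcript genes in replicates 1 and 2. In lincRNA genes they held 35.9% and 38.2%, and in bidirectional_promoter_lncRNA genes 49.8% and 48.4%.

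**Figure D4:**
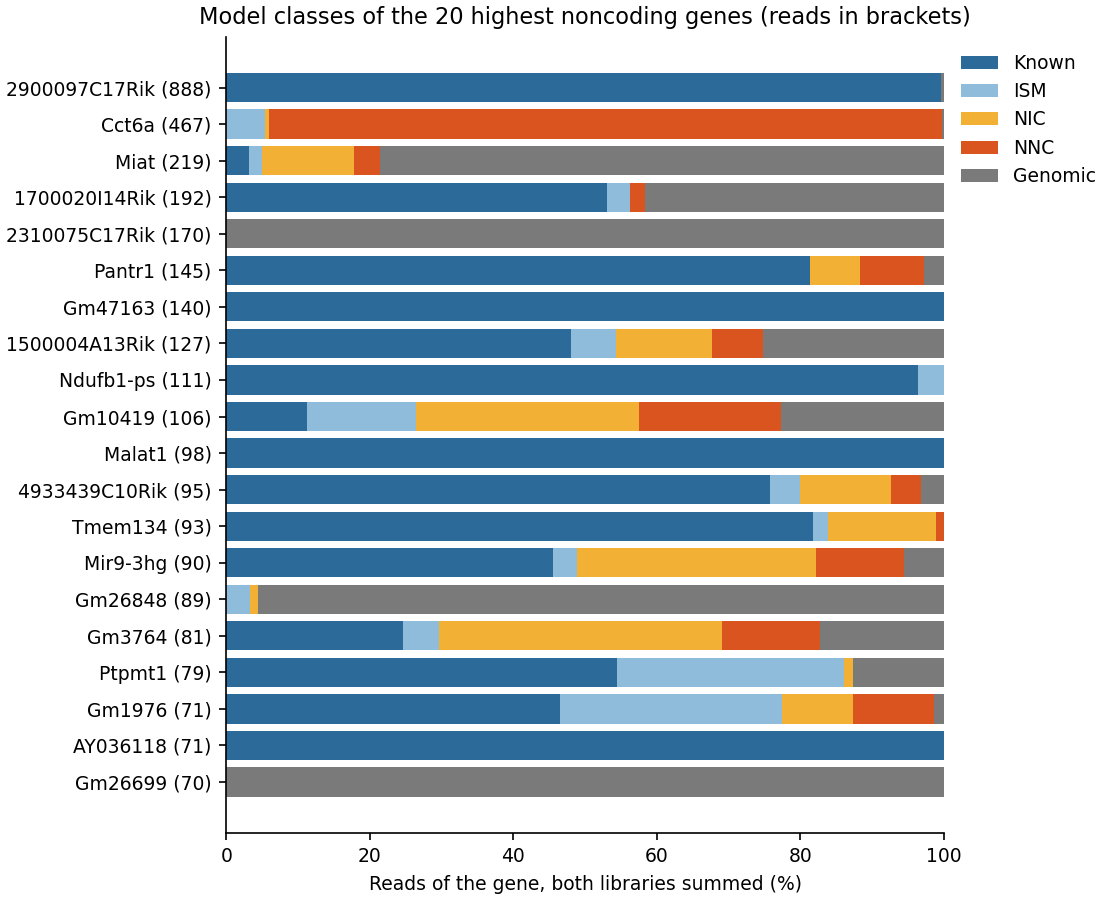
Share of reads by model class for the 20 noncoding-typed genes with the highest mean level, both libraries summed, with the number of reads in brackets. Malat1, Gm47163 and AY036118 lie wholly in Known models, Cct6a almost wholly in NNC chains, and 2310075C17Rik and Gm26699 wholly in Genomic models.

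Several high genes were carried by models that do not follow their annotation. 2310075C17Rik on chromosome 9 (112227579 to 112228242, plus strand) had 82 and 88 reads, all in single-exon Genomic models. The model of replicate 1 starts at 112228242, the last annotated base of the gene, and runs to 112231133. That of replicate 2 runs from 112227671 to 112231125. Most of each model lies past the annotated end, so the level of this gene rests on how these reads were assigned. Gm26848 on chromosome 17 (6314199 to 6493180, plus strand) had 37 and 52 reads, none of which overlapped its annotated exons. Its single-exon model from 6447402 to 6450969 had the same ends in both libraries, with 28 and 39 reads. Gm26699 on chromosome 6 had 24 and 46 reads in single-exon models opposite exons of Luc7l2. In 6 of the 142 genes no read, whichever gene it was assigned to, overlapped an annotated exon of the gene on its strand. In 12 genes, these 6 included, fewer than 10 reads did over both libraries. In the other direction, 5 genes that share exons with coding genes, had over 2 times as many reads on their exons as were assigned to them. One was Gm20427, which shares exons with Slc39a7 and H2-Ke6 and had 104 and 161 reads on its exons and 16 and 17 assigned.

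Most of the other high genes were spliced in most of their reads. 1500004A13Rik on chromosome 3 had 52 and 75 reads, or 74.1 ± 9.94 CPM, with 74.8% of its reads spliced, and its leading isoform, an annotated one of 3 exons and 1659 bases, held 19 and 23 reads. 4933439C10Rik on chromosome 11 had 40 and 55 reads, or 55.6 ± 5.59 CPM, and an annotated transcript of 5 exons and 1883 bases held 30 and 36 of them. Gm1976 on chromosome 17 had 40 and 31 reads, or 42.6 ± 12.8 CPM, with 19 and 14 in an annotated transcript of 4 exons and 1853 bases. These 3 genes are typed lncRNA in RefSeq and have no role stated here. Gm10419 on chromosome 5 was spread over many isoforms, with 38 isoforms over both libraries, and its leading isoform held 5 and 6 of 31 and 35 isoform reads. Gm3764 was spread likewise, with 35 isoforms and 4 and 6 of 23 and 40 isoform reads in the leading one. Of the genes that RefSeq types as protein-coding, Ndufb1-ps was spliced in every read, with 32 and 54 of its 40 and 71 reads in a transcript of 3 exons and 861 bases. Ptpmt1 had 34 and 45 reads with 18 and 21 in a transcript of 4 exons and 1529 bases, and Tmem134, a membrane protein gene in RefSeq, had 44 and 49 reads, all spliced. AY036118 and Gm42418, on opposite strands of the ribosomal RNA locus, had 36 and 35 reads and 25 and 31 reads, all in single-exon Known models.

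The 48 genes opposite coding exons had 29.8% and 32.5% of their reads in Genomic models in replicates 1 and 2, and 22 of them (45.8%) had Genomic as the leading class. The 86 genes that share no exon with a coding gene had 21.1% and 21.7%, and 19 of them (22.1%) had Genomic as the leading class. Of the reads of the 48 genes, 13.8% and 14.7% were in models with at least 50% of their bases opposite coding exons. Single genes weigh on the read shares of both groups. Cct6a gave 247 and 220 of the 975 and 1134 reads of the 48 genes, with 0 and 1 in Genomic models. Norad gave 430 and 458 of the 1925 and 2243 reads of the 86 genes, with 2 and 2 in Genomic models. These are counts of genes and reads, without a test.

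Cct6a (chromosome 5, 129786998 to 129846371) was second in level, with 319 and 238 CPM. A single NNC chain of 13 exons and 2548 bases held 212 and 188 of its reads, and no read fell in a Known model. Across the set 556 unannotated spliced chains (NIC or NNC) were seen and 68 of them, in 44 genes, were seen in both libraries. Without Cct6a the 66 shared chains held 36.4% and 38.1% of the reads in such chains. Only 7 of the 66 had at least 5 reads in each library. They included a 4-exon chain of Mir9-3hg with 10 and 11 reads, a 2-exon chain of C230057M02Rik with 7 and 11 and a 7-exon chain of Miat with 5 and 5. Among the 30 genes with at least 50 reads in all, the share of reads in unannotated chains was highest in Cct6a (94.4%), Gm3764 (53.1%), Gm10419 (50.9%), Mir9-3hg (45.6%) and 9330151L19Rik (45.3%). It was 0 in Norad, Malat1, Gm47163, 2310075C17Rik, Ndufb1-ps, AY036118, Gm42418, Gm26699, Gm10076 and Gm14066.

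The leading isoform was the same in both libraries in 37 of 44 genes that had 10 or more isoform reads per library. Isoform reads are those of Known, NIC and NNC models, and ties counted as the same. The 7 other genes were Miat, 9130024F11Rik, 2610035D17Rik, 2410018L13Rik, A230072C01Rik, 5530601H04Rik and B230209E15Rik. Over the 44 genes the isoform with the highest mean share was an annotated transcript in 34, with a median of 3 exons and 1871 bases over all 44. Of these 34 annotated transcripts 27 (79.4%) held AATAAA or ATTAAA on the sense strand in their last 50 bases. The share was 78.2% in 6618 annotated transcripts of protein-coding genes, and 40.2% in all 11070 annotated transcripts of the 3 gene types. Each of the 6618 had 10 or more reads of its own in each library, whether it led its gene or not. The 34 were held to that minimum by gene only, so the sets were not chosen alike. Isoform usage could be tested in 5 genes that had 50 or more reads of any class per library and more than 1 isoform (2900097C17Rik, Cct6a, Miat, 1700020I14Rik and 1500004A13Rik). By the chi-square test none passed after Benjamini-Hochberg adjustment and none had an unadjusted p under 0.05, beside 25 of 3141 genes (0.796%) after adjustment and 266 (8.47%) without it.

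Host genes of small RNAs made up a group by function. Among 12 noncoding-typed genes that contain a miRNA hairpin on their strand, the 3 miR-9 hosts had 34 and 47 reads (Gm3764), 50 and 40 (Mir9-3hg) and 23 and 20 (C130071C03Rik). miR-9 is a neural miRNA that acts in neurogenesis. The hairpin lay in an intron of 38 and 35 of the reads of Mir9-3hg, and in an intron of 15 and 24 of those of Gm3764. In C130071C03Rik it lay in an exon, in 9 and 16 reads, and in an intron in 1 and 1. miR-22 was exonic in 30 and 26 of the 33 and 26 reads of Mir22hg, which shares exons with Tlcd2 on the same strand. The host of miR-132 and miR-212, activity-regulated miRNAs of neurons, had 7 and 10 reads, with both hairpins in an exon of 6 and 8. Its main chain, seen with 6 and 6 reads, was an unannotated one of 2 exons. The hairpins of miR-125b-1 in 3110039I08Rik, miR-99a in Mir99ahg and miR-16-1 in Dleu2 were intronic in every read that spanned them, 3 and 9, 1 and 1, and 4 and 5 reads. These reads are of host transcripts, and the mature miRNAs were not measured. Mir124a-1hg, a listed miRNA host that is not among the 12, had 8 and 11 reads, all in Genomic models.

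**Figure D5:**
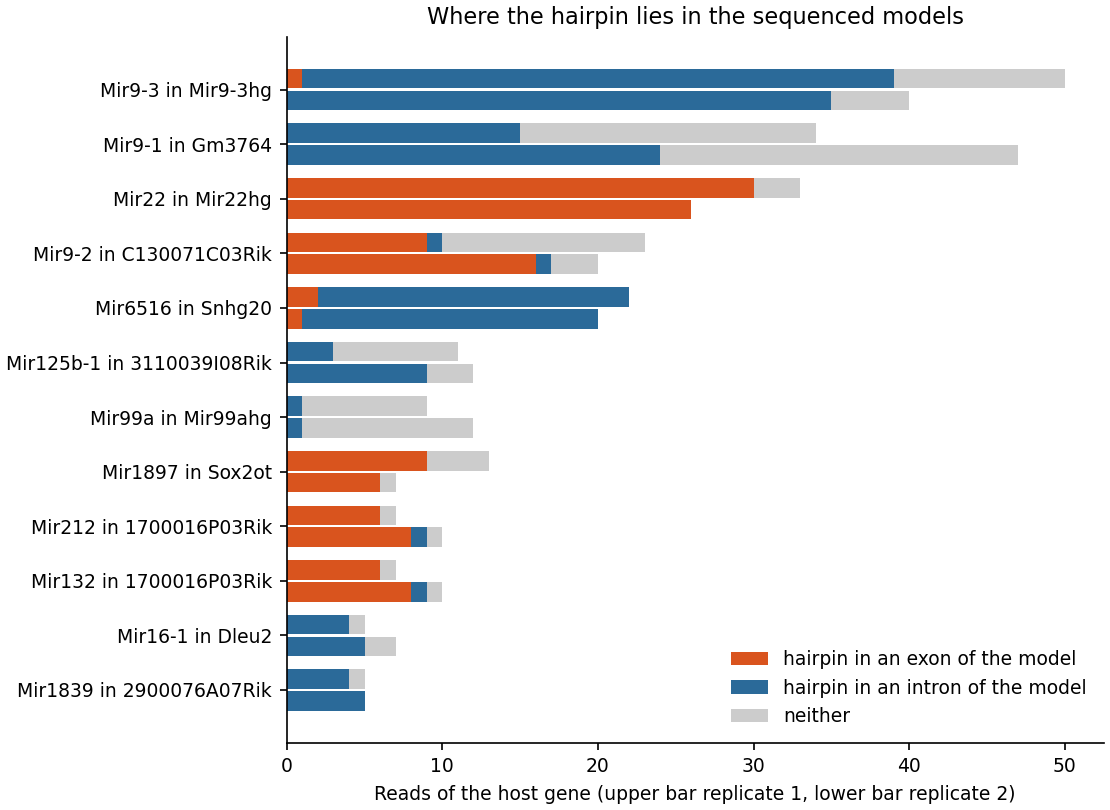
Reads of miRNA host genes in replicate 1 (upper bar) and replicate 2 (lower bar), split by whether the hairpin lies in an exon of the model, in an intron of the model or in neither. The hairpins of miR-22 and miR-132 with miR-212 lie mostly in exons and those of miR-9-3 and miR-6516 mostly in introns. The miR-9-2 hairpin lies in an exon of 9 and 16 reads and in an intron of 1 and 1.

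Hosts of small nucleolar RNAs, which guide modification of ribosomal RNA, were spliced in nearly every read. Of the 7 noncoding-typed genes with an annotated snoRNA inside their span, Gas5 held 10 snoRNAs and had 28 and 35 reads, or 37.0 ± 1.23 CPM. Zfas1 had 7 and 9 reads, Snhg5 6 and 9, Snhg6 5 and 16, Snhg8 5 and 14, and 2410006H16Rik 5 and 16. Every read of these 6 genes was spliced, beside 52.2% ± 0.389 over all 142 genes. The seventh was Cct6a, with 99.6% of its reads spliced. The leading isoform of Gas5, an annotated one of 11 exons and 557 bases, held 8 and 13 reads. Of 21 snoRNA hosts listed, 18 had a read under the listed symbol, 6 were members and none of the 6 passed the library test. Among these members Snhg20, with no annotated snoRNA in its span, had 22 and 20 reads, of which 92.9% were spliced. Snhg1 had 0 and 7 reads and Snhg3 had 3 and 12, below the minimum.

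Genes beside loci of neural development were the remaining role group. 9130024F11Rik had 30 and 36 reads, or 38.8 ± 0.173 CPM. 2610035D17Rik had 15 and 13 reads, and Sox2ot, which spans Sox2, the gene of a transcription factor of neural progenitors, had 13 and 7. Of 16 genes listed here 15 had a read, 5 were members and 1, Pantr1, passed the library test. Of the 8 genes listed as imprinted noncoding, none was a member, but only 2 were of the 3 types and had a read. Mcts2 on that list is typed protein_coding. Peg13, typed sense_intronic, had 47 and 56 reads. Meg3 with 352 and 446 reads and Rian with 15 and 23 were left out by name, so the absence of imprinted genes is no result. The conserved cytoplasmic or regulatory RNAs listed included Norad and Cyrano, described above. Tug1, typed antisense and so no member, had 10 and 15 reads.

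The start of 53 of the 142 genes (37.3%) lay within 1000 bases of the start of a coding gene on the other strand, with a median distance of 188 bases. These pairs are called divergent here, and the share among other genes was not computed. The distance was taken in either direction, so pairs that overlap are included. Cct6a with Psph and Gm47163 with Shc2, for example, have exons opposite each other. The 53 genes were 26 processed_transcript, 19 lincRNA and 8 of the 9 bidirectional_promoter_lncRNA genes. The pairs with many member reads included Cct6a with Psph, Pantr1 with Pou3f3, Gm47163 with Shc2, Gm10419 with Gm42517 and 9330151L19Rik with Gm49383. Gm47163 (chromosome 10, 79637856 to 79639520) starts 62 bases from Shc2, an adaptor gene of neurons, and had 64 and 76 reads against 50 and 71 of Shc2. Gm10419 had 46 and 60 reads against 80 and 83 of Gm42517. The noncoding-typed genes were held to the read minimum and their partners were not, so levels within pairs are a description. The noncoding-typed gene was the higher of the pair in both libraries in 20 of the 53 pairs, and the coding gene in 26. Median levels were 11.99 CPM for the noncoding-typed genes and 13.7 CPM for their partners. Spearman's rho of the levels across pairs was 0.162, a description over pairs that share library and depth.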

How the data were processed

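For each of the libraries the authors deposited transcript models and a table of whole-number read counts per model, with no normalization. Per the text deposited beside the tables, models were built on mm10 with GENCODE M21 and spike-in sequences, and the files credit features absent from it to TALON. Neither the aligner nor any version is given in the sources used here. The members, the lists and the rule for named genes were chosen with earlier results of these data known. Named are the 20 highest members, those past a test, up to 6 per role list, those with extreme shares of unannotated chains or extreme ratios, 6 divergent pairs, 1 of which is not reported here, and genes at the read minimum.

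Gene counts are sums over all models assigned to a gene. CPM values divide them by mouse reads (775048 and 924222, of 782521 and 935052 reads in all). Fisher's exact test was run on genes with a sum of 10 reads or more, and the chi-square test of isoforms genes with at least 50 in each, with isoforms under 10 reads merged. Log2 ratios add 0.5 reads. Both tests used SciPy 1.17.1 and were tested on simulated data. TMM factors came from edgeR 4.0.16 and size factors from DESeq2 1.42.0. Unannotated chains were called shared where chromosome, strand and every intron matched. Members were matched to RefSeq by accession (76), symbol (31) or synonym (3). Motifs were searched in GENCODE M21 transcripts.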

Additional observations from a re-analysis of the deposited data

How the results depend on the processing

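Values with a replicate left out always stay within their SD for a mean of 2 libraries and are set aside. Of 34 other recomputed values over 8 results, 19 were called the same. For the log2 ratio of Pantr1 that meant still passing the test. For shares and medians it meant moving by less than the SD between replicates. Counts were called the same within a fixed ratio of the main count, so a count over fewer genes could be called weaker. A reversal could be called only for the log2 ratio of Pantr1, which stayed negative under every setting. Counts, shares and medians could not be called reversed. No paired analysis was possible because there is 1 group, so no replicate number is shared between groups. Scaling to ERCC reads moved the median log2 ratio of all tested genes to 0.29 and of members to 0.39. The count of members past the library test was then 4 of 142 (Norad, AC102496.1, Cct6a and Malat1), beside 988 of all 11203 tested genes. All 4 were higher in replicate 1 where Pantr1 had been lower. Pantr1 was then at -0.70 with adjusted p = 0.0668 (Fisher's exact test). Under the other 7 settings the adjusted p of Pantr1 ran from 0.00310 to 0.0266. Counting every read on the exons of a gene gave 2 of 130 tested members, Pantr1 and Gm14066, beside 232 of all 11387 tested genes. The member share of mouse reads was 0.320% with 10 reads in each library, 0.416% with 10 over both, 0.185% in Known models and 0.323% without the 11 RefSeq protein-coding and ribosomal locus genes, a setting chosen after seeing the data, as for the shares below. It was 0.378% to 0.391% when either replicate was left out. The median level was 25.7 CPM with 10 reads in each library, 3.88 CPM in Known models and 13.0 to 14.2 CPM with a replicate left out. The share of member reads in Known models was 50.2% with 10 reads in each library and 58.7% in models with at least 5 reads. It was 47.5% to 48.9% with a replicate left out. The spliced share was 51.0%, 44.0% and, without those 11 genes, 46.2%, and 51.9% to 52.4% with a replicate left out. With 20 isoform reads in each library 22 of 24 members kept their leading isoform. Fewer genes enter under the stricter minimums, and the cause of the other shifts was not tested. Depth limits the low genes, since 3 reads are 3.87 and 3.25 CPM.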
